A study of Mus musculus with 15 samples.

Results

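Podoplanin-positive, BP3-negative (PDPN+BP3-) mesenchymal cells of the lymph node were compared with cells of the same sorted phenotype from the thymus. The comparison uses the 3 arrays titled as lymph node cells of this phenotype and the 3 titled as thymus cells, 6 of the 15 arrays of the study. All cells came from C57BL/6 mice aged 2 weeks, were freed with liberase TM and DNase I and were sorted as PDGFRβ-positive. The lymph nodes were inguinal, brachial and axillary nodes, and no genetic change or treatment is named for any group. The other 9 arrays, 3 each, hold lymph node PDPN+BP3+ cells and the PDPN- cells of both tissues, which were sorted as Ly51-positive as well. Each group came from 3 individual experiments on pooled mice, 3 mice for a thymus pool and 10 to 11 for a lymph node pool, which means that the effects of pool size and tissue cannot be told apart. The RNA of a pool was amplified by whole-transcriptome amplification (Ovation Pico WTA V2) and read on Affymetrix Mouse Gene 1.1 ST arrays. The deposited values are log2 signals, and a value is given below for each of the 3 arrays of a tissue, in the order of the replicate numbers, with lymph node first unless it is said otherwise. A difference is always lymph node minus thymus in log2 units, so a negative difference means a higher signal in thymus. It is given ± the standard error of a limma fit with n = 3 arrays per group. The fit pools the spread of all 15 arrays, so the error is not that of the 6 arrays compared alone.

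Podoplanin is a membrane glycoprotein that in lymphoid organs marks fibroblasts, which build the matrix scaffold of the organ and feed signals to lymphocytes and vessels. In the thymus, mesenchyme forms the capsule, the septa and the sheath of vessels, and it supplies growth factors to the epithelium in which T cells are made. In lymph nodes, podoplanin-positive fibroblasts form the reticular network on which lymphocytes crawl, and those that lack BP3, the product of Bst1, are known from the medulla, the capsule and the adventitia of vessels. Mesenchyme also keeps a record of where in the embryo it arose. The thymus develops from the pharyngeal region with mesenchyme from the neural crest, while peripheral nodes develop in trunk and limb-girdle mesenchyme.

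The genes of the antigens used in the sort were read first, as a check of the labels. Pdgfrb, the receptor on which all cells were gated, stood at 8.99, 9.03 and 8.79 in lymph node and 8.86, 9.07 and 8.88 in thymus, a difference of 0.00 ± 0.11 that did not pass the threshold (limma adjusted p 1). Pdpn stood at 8.23, 7.90 and 8.34 in lymph node and 9.01, 9.14 and 9.19 in thymus, while the 6 PDPN- arrays lay at 2.77 to 3.48. Both PDPN+BP3- groups thus lay on the side their labels give, and the tissues did not overlap, with thymus higher (-0.96 ± 0.13, adjusted p 8.38e-05). Bst1 stood at 3.80, 3.03 and 3.06 in lymph node and 2.08, 2.23 and 2.32 in thymus (1.09 ± 0.18), against 8.94, 8.71 and 8.56 on the lymph node PDPN+BP3+ arrays. Enpep, which encodes Ly51, stood at 4.14, 3.36 and 3.73 against 4.06, 4.77 and 4.63 (-0.74 ± 0.18, adjusted p 0.00936), and its arrays overlapped. The PDPN- arrays lay at 7.63 to 8.15. The call of Enpep was lost without lymph node replicate 2 (-0.55, adjusted p 0.0602). It was also lost in a limma fit on the populations compared alone (adjusted p 0.0899).

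Each tissue carried a set of genes at high signal that lay among low signals in the other, and 5 of them serve as markers of the comparison. Cldn1, which encodes the tight-junction protein claudin-1, stood at 9.12, 9.0 and 8.90 in lymph node and 2.64, 2.97 and 3.06 in thymus (6.12 ± 0.18, adjusted p 2.83e-12). Grem1, a secreted antagonist of bone morphogenetic proteins (BMPs), stood at 7.40, 7.52 and 7.12 against 3.17, 3.16 and 3.39 (4.11 ± 0.12, adjusted p 2.83e-12). Both were high on every lymph node PDPN+BP3- array and low on every thymus PDPN+BP3- array. The lymph node PDPN+BP3+ arrays were high as well, at 8.66, 8.62 and 8.72 for Cldn1 and 9.60, 9.67 and 9.67 for Grem1. Ret, the receptor tyrosine kinase of the GDNF family, stood at 2.73, 2.52 and 2.32 in lymph node and 7.24, 7.55 and 7.39 in thymus (-4.87 ± 0.14, adjusted p 2.83e-12). Tcf21, a basic helix-loop-helix factor of mesenchymal progenitors, stood at 3.17, 2.57 and 2.88 against 7.36, 7.58 and 7.82 (-4.71 ± 0.17, adjusted p 1.79e-11). Hsd11b1, the reductase that regenerates active glucocorticoid inside cells, stood at 3.99, 2.72 and 3.47 against 8.37, 8.21 and 8.05 (-4.82 ± 0.29, adjusted p 6.74e-09). For these 3 the order was turned, with every thymus PDPN+BP3- array above every lymph node PDPN+BP3- array. Ret set the thymus PDPN+BP3- cells apart from the other populations, since PDPN- arrays of both tissues lay at 2.46 to 2.90 and those of lymph node PDPN+BP3+ cells at 4.19, 4.48 and 4.51. Tcf21 did not, since the thymus PDPN- arrays stood at 7.47, 7.45 and 7.0.

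**Figure D1:**
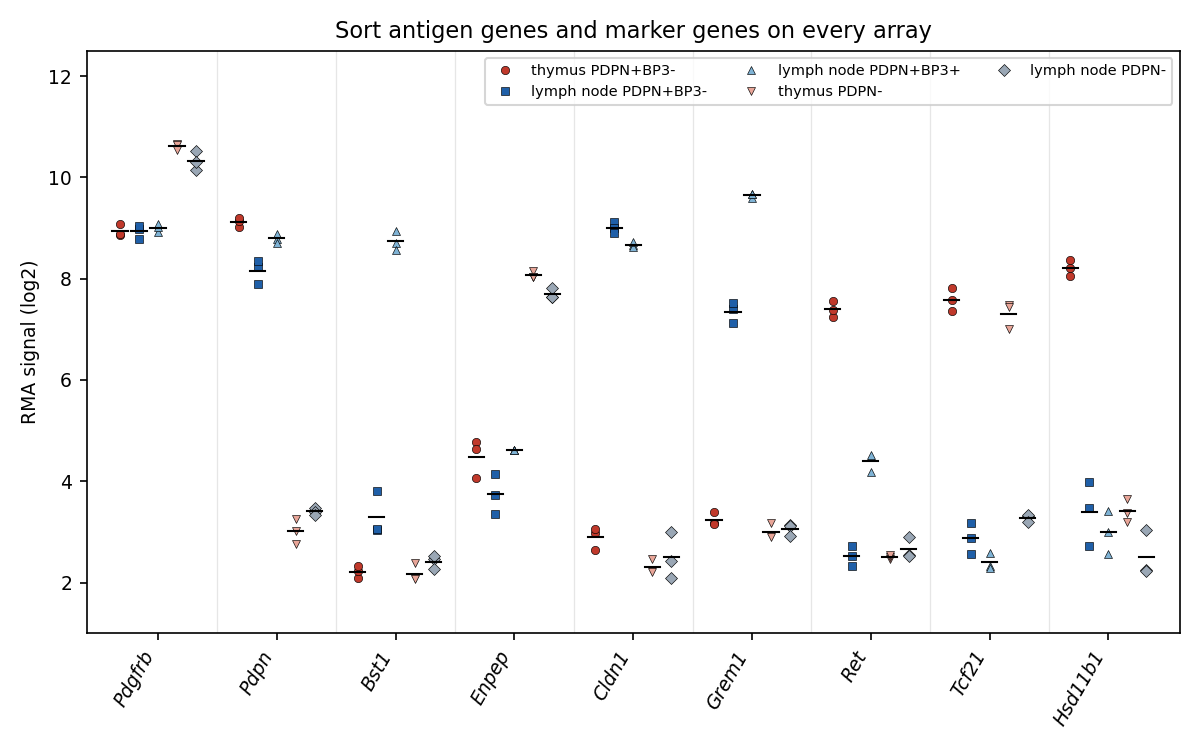
RMA signal (log2, vertical axis) of the 4 sort antigen genes and the 5 marker genes (horizontal axis) on each of the 15 arrays; a point is 1 array, a bar the mean of 3, and colour and shape give the population. Cldn1 and Grem1 are at 8.90 to 9.12 and 7.12 to 7.52 in lymph node PDPN+BP3- cells and below 4 in thymus PDPN+BP3- cells, where Ret, Tcf21 and Hsd11b1 are at 7.24 to 7.55, 7.36 to 7.82 and 8.05 to 8.37.

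The promoters of the marker genes are shown because these genes are among those with the widest contrast between the tissues, with the 250 bases before the transcription start and with every CG dinucleotide, the site of DNA methylation in mammals, in capitals. The sequences are from RefSeq, mouse build GRCm38.p6, and all 4 genes lie on the minus strand; no promoter of Ret was printed.
Cldn1, chr16:26371840-26372089: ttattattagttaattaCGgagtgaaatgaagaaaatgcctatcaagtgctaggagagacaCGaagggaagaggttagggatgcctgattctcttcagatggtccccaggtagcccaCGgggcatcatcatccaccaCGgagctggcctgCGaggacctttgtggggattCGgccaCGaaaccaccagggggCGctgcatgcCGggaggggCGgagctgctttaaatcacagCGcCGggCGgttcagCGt
Grem1, chr2:113758649-113758898: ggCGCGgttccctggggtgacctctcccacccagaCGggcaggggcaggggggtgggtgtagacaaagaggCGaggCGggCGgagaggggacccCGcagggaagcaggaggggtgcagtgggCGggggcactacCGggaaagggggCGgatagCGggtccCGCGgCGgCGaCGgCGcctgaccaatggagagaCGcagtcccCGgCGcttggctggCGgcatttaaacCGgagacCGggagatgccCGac
Tcf21, chr10:22820144-22820393: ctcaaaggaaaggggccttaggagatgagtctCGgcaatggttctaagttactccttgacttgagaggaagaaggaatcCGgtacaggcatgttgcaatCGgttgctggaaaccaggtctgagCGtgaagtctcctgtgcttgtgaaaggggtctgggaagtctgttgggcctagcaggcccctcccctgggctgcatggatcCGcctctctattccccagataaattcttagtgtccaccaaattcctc
Hsd11b1, chr1:193242361-193242610: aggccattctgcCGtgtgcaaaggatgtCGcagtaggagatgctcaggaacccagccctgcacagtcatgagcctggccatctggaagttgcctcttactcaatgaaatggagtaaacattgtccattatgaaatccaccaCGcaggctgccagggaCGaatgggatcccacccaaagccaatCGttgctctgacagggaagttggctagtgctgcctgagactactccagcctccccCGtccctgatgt
The window held 14 CG dinucleotides in Cldn1 and 24 in Grem1, and 5 in Tcf21 and 6 in Hsd11b1. Of the 32851 mouse promoter windows of the same length, 29.4% hold at least as many as Cldn1, 12% as Grem1, 55.6% as Tcf21 and 50.4% as Hsd11b1. The arrays measured RNA, and methylation was not measured.

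Across the 18718 genes tested, 3205 passed an adjusted p of 0.05 (17.1%). Of these, 2215 were higher in lymph node (11.8% of the genes tested) and 990 lower (5.29%), and the median difference of all genes was 0.04. This split depends on scaling. Thymus PDPN+BP3- replicate 1 had a narrower range of signals than the other arrays (interquartile range 3.26, against 3.71 to 3.94 on the other 14) and a median of 3.58 against 3.77 to 3.885. Without it 1381 genes were higher (7.38%) and 1150 lower (6.14%), after cyclic loess 1332 (7.12%) and 1584 (8.46%), and after quantile normalization 1513 (8.08%) and 1469 (7.85%). Among the genes whose mean lay above the median of the table the difference had a median of 0.21. A call is therefore named as held where it also passed, with the same sign, without that array and under both renormalizations. Held calls numbered 2047 (10.9%), 1167 higher (6.23%) and 880 lower (4.7%). Genes named as higher or lower from here on held their calls unless it is said that they did not, while counts over a list are of all calls, with those held given beside them where fewer. Each list count is to be read beside the shares of all genes, 11.8% higher and 5.29% lower. A list near these shares differs little from the genes at large.

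Large differences were less touched by this. A difference of at least 2 log2 units was found for 114 genes higher and 110 lower, and the call held for all of them. For 51 of the 114 and 66 of the 110 the tissue with less signal averaged under 3.8, the table's median. A signal that low need not stand above background, so the ratio of RNA behind these differences is not known. Arrays of the tissues did not overlap for 29.2% of all genes tested, 18.4% higher and 10.8% lower.

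**Figure D2:**
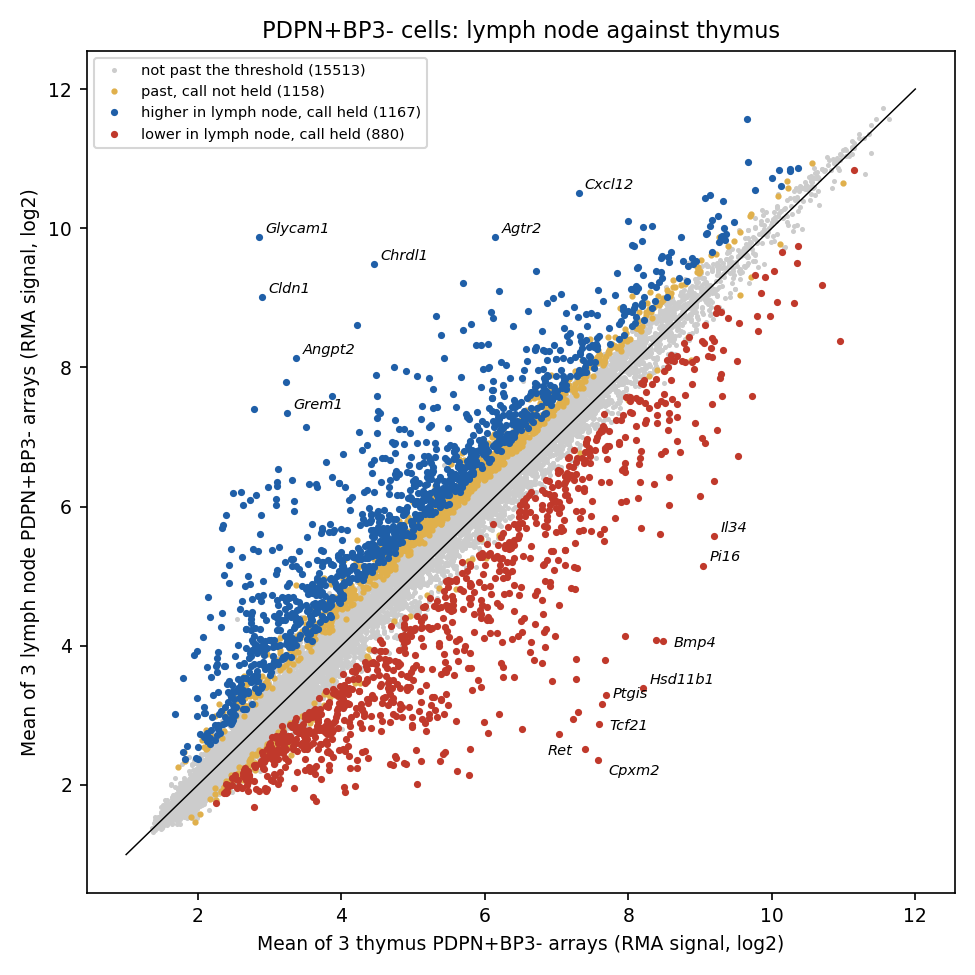
Mean log2 signal of the 3 lymph node PDPN+BP3- arrays (vertical axis) against the mean of the 3 thymus PDPN+BP3- arrays (horizontal axis); a point is 1 of 18718 genes, the line marks equal signal, and colours give the 1167 held higher calls, the 880 held lower calls and the other calls, which were not held. The calls that were not held lie mostly in a band above the line, and the marker genes lie far from it.

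Further genes with wide positive differences are Chrdl1, Angpt2 and Agtr2. Chrdl1, a chordin-like BMP antagonist, stood at 9.65, 9.28 and 9.54 in lymph node and 4.24, 4.74 and 4.38 in thymus (5.04 ± 0.21). Angpt2, the angiopoietin that opposes vessel quiescence, stood at 8.18, 8.08 and 8.13 against 3.23, 3.78 and 3.11 (4.76 ± 0.17). Agtr2, an angiotensin receptor, stood at 9.59, 10.14 and 9.90 against 5.86, 6.05 and 6.53 (3.73 ± 0.21). In all 3 genes the lowest lymph node array lay more than 3 units above the highest thymus array. The calcium-activated chloride channel Ano1 (4.39 ± 0.18), the potassium channel Kcnk3 (3.42 ± 0.19) and the GABA receptor subunit Gabrg3 (4.63 ± 0.20) were higher as well. So were the phosphodiesterase Gdpd2 (4.56 ± 0.14), the granin Scg3 (3.72 ± 0.33), the prostaglandin transporter Slco2a1 (3.41 ± 0.24), the serpin Serpina10 (3.50 ± 0.10), the metalloprotease Adamts17 (3.40 ± 0.24), the desmosomal cadherin Dsc3 (3.39 ± 0.13), the semaphorin Sema5b (3.36 ± 0.18), the transcription factor Spic (3.36 ± 0.17) and the sulfotransferase Sult5a1 (3.26 ± 0.15). For some of these genes the low signal was that of thymus PDPN+BP3- cells alone among the 4 PDPN+BP3- and PDPN- populations. The thymus PDPN- arrays stood at 8.65, 8.27 and 8.48 for Angpt2 and 9.41, 9.03 and 9.28 for Ano1. For Kcnk3 they stood at 5.86, 6.07 and 5.79 and for Sema5b at 6.32, 6.51 and 6.41. Lymph node PDPN+BP3+ cells, which are outside these 4, averaged 5.41 for Angpt2, 6.06 for Ano1, 3.65 for Kcnk3 and 3.78 for Sema5b. Each of these means lay below every PDPN- array of its gene. For Dsc3, Serpina10 and Spic the lymph node PDPN+BP3+ cells averaged 10.15, 9.39 and 8.39, against 6.02, 5.88 and 5.70 in lymph node PDPN+BP3- cells. Csf2rb, a cytokine receptor chain, was higher (3.51 ± 0.29), but probes of its near-identical paralogue may share its signal.

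Glycam1, a mucin ligand of L-selectin made by high endothelial venules, had the largest difference in size and the largest error. It stood at 10.07, 9.56 and 10.0 in lymph node and 2.77, 2.77 and 3.0 in thymus (7.03 ± 0.91, adjusted p 3.73e-05). It was also high on the lymph node PDPN+BP3+ arrays (8.48, 8.60 and 9.01) and on 2 of the 3 lymph node PDPN- arrays (8.85, 9.43 and 3.86), and low on the thymus PDPN- arrays (2.64, 2.88 and 2.94). Glycam1 is itself a member of the list of vessel endothelium given with the other cell types below. The part of endothelial RNA in its difference was not tested.

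In thymus cells the widest excess was that of Cpxm2, a secreted carboxypeptidase-like protein, which stood at 2.83, 2.22 and 2.02 in lymph node and 7.23, 7.57 and 7.95 in thymus (-5.23 ± 0.23). Masp1, a protease of the lectin pathway of complement, stood at 2.60, 2.65 and 2.93 against 7.09, 7.01 and 7.0 (-4.31 ± 0.11), with the smallest adjusted p of the comparison (1.36e-12). Tnfrsf19, an orphan TNF receptor, stood at 2.98, 2.96 and 2.89 against 6.97, 7.45 and 7.26 (-4.28 ± 0.14). These genes were among low signals in lymph node and well above the table's median on each thymus array. The phospholipase Pla1a (-4.39 ± 0.18), the leukotriene C4 synthase Ltc4s (-3.83 ± 0.13), the purinergic receptor P2ry1 (-3.43 ± 0.15), the cation channel Mcoln2 (-3.41 ± 0.18) and the teneurin Tenm4 (-3.30 ± 0.13) were higher in thymus too. Pla1a was also high on the lymph node PDPN- arrays (7.27, 7.33 and 7.47), beside 7.58, 7.76 and 7.72 on the thymus PDPN+BP3- arrays. The low signal was thus that of the lymph node PDPN+BP3- cells, shared by the lymph node PDPN+BP3+ arrays (2.84, 2.59 and 2.63). Reg3g, an antimicrobial lectin, and Krtdap, a keratinocyte protein, stood at 5.32, 6.51 and 5.52 and 6.48, 7.50 and 7.82 in thymus (-3.64 ± 0.29 and -3.45 ± 0.32). Reg3g and Krtdap are known from epithelia, whose marker list is described below.

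Hox genes, which encode positional identity along the body axis, separated the tissues by paralogue number. Of 36 measured Hox genes 18 were higher in lymph node (17 held) and 2 lower, with a median difference of 0.35 beside 0.04 over all genes. The 18 all carry paralogue numbers 4 to 10, and the 2 are Hoxa2 and Hoxd3. Hoxc8 stood at 6.18, 5.73 and 5.29 in lymph node and 2.44, 2.33 and 2.30 in thymus (3.38 ± 0.21, adjusted p 1.02e-08). Hoxc6 stood at 6.09, 6.48 and 5.92 against 2.51, 2.88 and 3.04 (3.35 ± 0.19), and Hoxd9 at 5.68, 6.40 and 6.16 against 3.55, 3.25 and 3.21 (2.74 ± 0.19). None of these arrays overlapped between tissues. In the C cluster Hoxc4 (2.37 ± 0.25), Hoxc5 (1.31 ± 0.22), Hoxc9 (2.03 ± 0.19) and Hoxc10 (1.37 ± 0.35) were higher as well, though the adjusted p of Hoxc10 was 0.0658 without lymph node replicate 2. In the A cluster Hoxa6 (1.96 ± 0.19), Hoxa7 (1.36 ± 0.13), Hoxa9 (1.29 ± 0.17) and Hoxa10 (1.53 ± 0.16) were higher, in the D cluster Hoxd4 (0.99 ± 0.17), Hoxd8 (1.61 ± 0.15) and Hoxd10 (0.41 ± 0.11; adjusted p 0.0553 without lymph node replicate 2), and in the B cluster Hoxb5 (0.94 ± 0.16), Hoxb6 (1.08 ± 0.13) and Hoxb7 (0.67 ± 0.13). Hoxa5 was the one higher call of this list that was not held (0.93 ± 0.24; 0.71, adjusted p 0.0667 without thymus replicate 1 and 0.0531 without lymph node replicate 1). Hoxd3 stood at 4.0, 4.16 and 3.98 in lymph node and 4.83, 4.57 and 5.23 in thymus (-0.83 ± 0.17, adjusted p 0.00244). Hoxa2, a gene of the pharyngeal arches, stood at 4.13, 4.55 and 4.60 against 4.50, 5.41 and 5.27 (-0.63 ± 0.21, adjusted p 0.045), a call made in 8 of 14 alternatives. It was lost without thymus replicate 2 or 3 or any lymph node replicate (adjusted p 0.0521 to 0.183). It was also lost in a limma fit on the populations compared alone (adjusted p 0.148). Paralogues 11 to 13 did not pass in either direction, and the higher tissue mean was at most 2.88 for any of them.

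**Figure D3:**
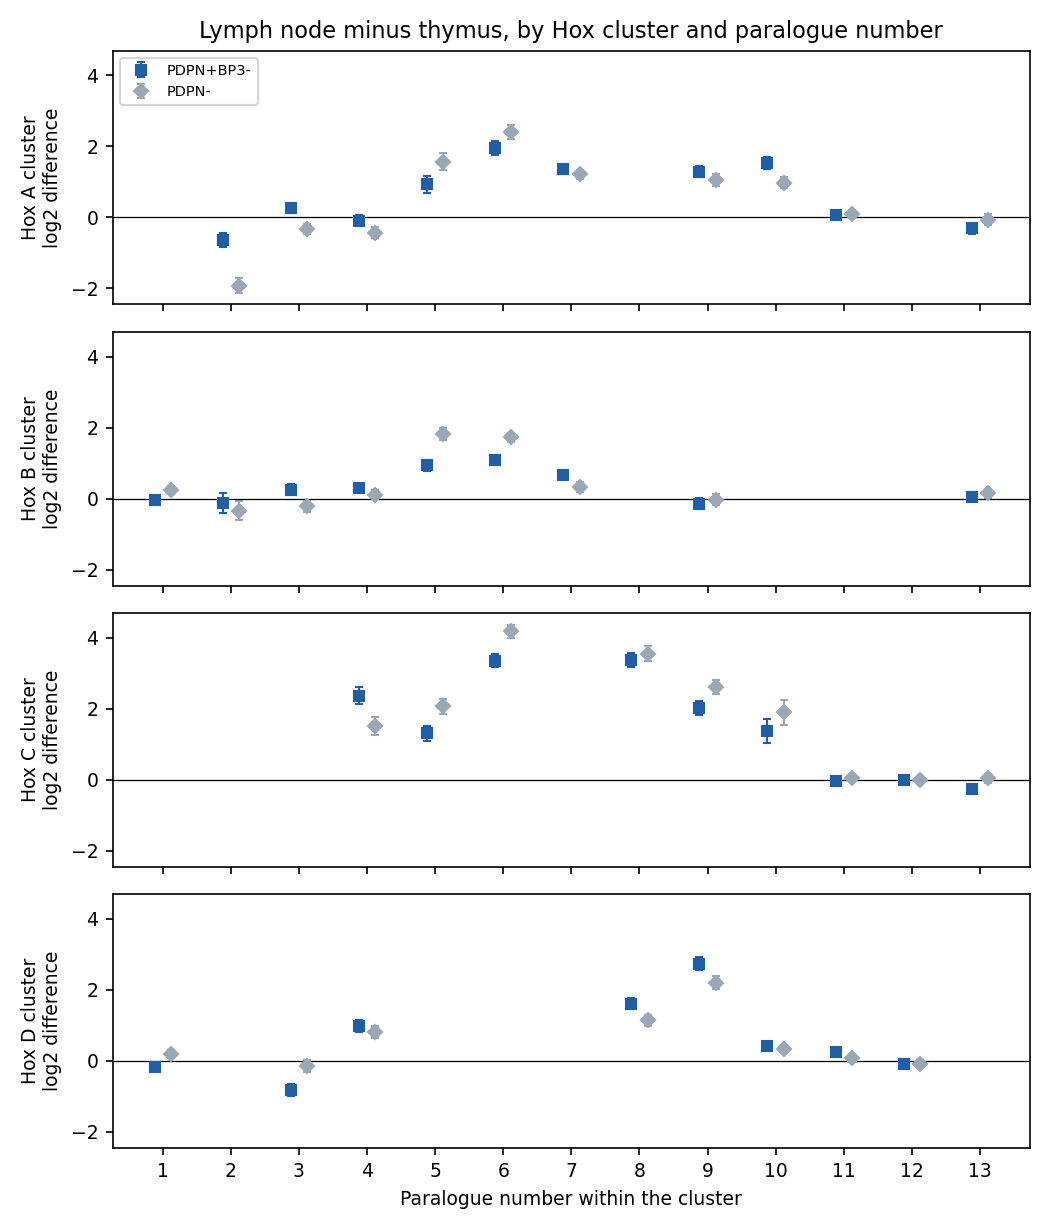
Difference of lymph node minus thymus (log2, vertical axis, ± standard error) for each measured Hox gene by paralogue number (horizontal axis), 1 panel per cluster; blue squares are PDPN+BP3- cells and grey diamonds PDPN- cells. Positive differences past the threshold fall at paralogues 4 to 10 in both subsets, and Hoxc8 and Hoxc6 reach 3.38 and 3.35 in PDPN+BP3- cells.

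Hox genes differed by tissue in the PDPN- cells too, which share no array with this comparison. There 16 of the 36 were higher in lymph node and 1 lower, beside 4.42% and 5.19% of all genes tested, with Hoxc6 at 4.18 ± 0.19 and Hoxc8 at 3.55 ± 0.21. The test of the difference between the subsets passed for 3 Hox genes, beside 12.7% of all genes. Hoxa2 was more negative in PDPN- cells (-1.92 ± 0.21, difference of differences 1.29 ± 0.29), and Hoxb5 (-0.88 ± 0.23) and Hoxb6 (-0.65 ± 0.18) had the larger positive difference there. Without lymph node PDPN+BP3- replicate 2 the adjusted p of Hoxb5 was 0.05, which did not pass. The test of Hoxb6 failed without PDPN+BP3- replicate 3 of thymus or replicate 1 of lymph node, and without PDPN- replicate 1 or 2 of thymus or 2 or 3 of lymph node (adjusted p 0.0531 to 0.0756). Of the cofactors that bind DNA with Hox proteins, Meis1 stood at 5.71, 5.40 and 5.32 in lymph node and 7.03, 7.56 and 7.17 in thymus (-1.78 ± 0.16) and Meis2 at -0.68 ± 0.15, while Pknox2 was higher in lymph node (1.37 ± 0.16). For Meis2 13 of 14 alternatives kept the call.

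Outside the Hox clusters, 16 of 78 regional transcription factor genes were higher in lymph node and 23 lower, all 39 of them held, and the list's median was -0.07. Tbx15, a factor of trunk and limb mesenchyme, stood at 6.27, 6.41 and 6.20 in lymph node and 3.31, 2.82 and 3.18 in thymus (3.19 ± 0.14, adjusted p 1.24e-10). Shox2, a short-stature homeobox gene, stood at 6.18, 6.59 and 6.09 against 2.89, 3.05 and 3.0 (3.31 ± 0.17). Lhx8 stood at 8.19, 7.88 and 7.78 against 4.74, 5.05 and 4.92 (3.05 ± 0.14). All 3 were separated by tissue on every PDPN+BP3- array. Shox2 was not high on the lymph node PDPN+BP3+ arrays (3.17, 3.47 and 3.37), beside 3.79, 3.97 and 3.63 on the thymus PDPN- arrays. Bnc2 (2.73 ± 0.22), Eya2 (2.32 ± 0.22), Twist2 (2.20 ± 0.22), Foxf1 (2.17 ± 0.20), Osr1 (1.71 ± 0.19), Tbx18 (1.51 ± 0.16) and the early B cell factors Ebf3 (1.20 ± 0.16) and Ebf1 (0.92 ± 0.12) were also higher in lymph node, as was En1 at low signals (0.97 ± 0.11).

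In thymus, beside Tcf21, the Wilms tumour factor Wt1 stood at 5.86, 6.24 and 5.88 against 2.95, 2.83 and 2.94 in lymph node (-3.09 ± 0.13). Foxc2 (-1.91 ± 0.26) and Hand2 (-1.77 ± 0.16), both known from neural crest and vessel-associated mesenchyme, were higher in thymus, as were Tbx2 (-1.98 ± 0.22), Mab21l2 (-2.0 ± 0.20), Mab21l1 (-1.47 ± 0.21), Gata3 (-1.31 ± 0.16), Eya4 (-1.11 ± 0.14), Prrx2 (-1.10 ± 0.24), Dlx1 (-1.01 ± 0.13), Ebf2 (-0.72 ± 0.14) and Tbx3 (-0.68 ± 0.13). The lymph node PDPN- arrays, at 4.54, 6.04 and 5.65 for Foxc2 and 8.28, 8.17 and 7.91 for Tbx2, did not share the low signal of lymph node PDPN+BP3- cells. Pax9, a factor of the pharyngeal pouches, was higher in thymus at low signals, at 2.14, 2.11 and 2.36 in lymph node and 2.64, 2.65 and 2.79 in thymus (-0.49 ± 0.12), as was Eya1 (-0.66 ± 0.15). Transcripts of thymocytes and epithelium, described below, were also higher on the thymus arrays. Their part in the thymus excess of Gata3, Pax9, Eya1 and the other factors was not tested. Within 1 family the directions were opposite, with Eya2 higher in lymph node and Eya4 in thymus, Tbx15 and Tbx18 higher in lymph node and Tbx2 and Tbx3 in thymus, and Ebf1 and Ebf3 higher in lymph node and Ebf2 in thymus. Tbx15 had a like difference in PDPN- cells (3.54 ± 0.14), whereas the difference of Wt1 was larger in PDPN+BP3- cells (difference of differences -3.07 ± 0.18, adjusted p 1.78e-08), with PDPN- arrays at 2.67 to 3.15.

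BMPs are secreted growth factors of the TGF-β superfamily that act through SMAD proteins and are held in check by extracellular antagonists. The ligand Bmp4 and the antagonists Grem1 and Chrdl1 differed in opposite directions between the tissues. Bmp4 stood at 4.56, 3.75 and 3.91 in lymph node and 8.52, 8.56 and 8.37 in thymus (-4.41 ± 0.22, adjusted p 7.29e-10). Bmp7 stood at 3.01, 3.21 and 2.85 against 5.04, 6.03 and 5.23 (-2.41 ± 0.21), and Bmp3 at 5.28, 5.46 and 5.34 against 3.36, 4.02 and 3.84 (1.62 ± 0.17). Bmp4 and Bmp7 were thus higher in thymus, and Bmp3 in lymph node. Of 15 BMP and GDF ligand genes 2 were higher and 5 lower (median -0.25), and of these 7 calls the 4 of Bmp3, Bmp4, Bmp7 and the inhibin subunit Inhbb (-0.58 ± 0.14) were held. Of 11 antagonist genes 4 were higher and 2 lower (median 0.07), all held. Chrdl1 and Grem1 were higher in lymph node as given above, and Sostdc1 stood at 4.60, 4.61 and 4.21 against 2.30, 2.33 and 2.38 (2.14 ± 0.14). Noggin, encoded by Nog, differed by 0.51 ± 0.13 at low signals, a call kept in 11 of 13 alternatives. It was lost without lymph node replicate 2 (adjusted p 0.0607) and in a limma fit on the populations compared alone (adjusted p 0.0656). The DAN-family antagonist Nbl1 (-1.73 ± 0.18) and the modulator Bmper (-1.07 ± 0.21) went the other way. Among 13 receptor and target genes 3 were higher in lymph node (2 held) and 0 lower; by limma 1 of the 13 had an unadjusted p under 0.05 with a negative difference, and cyclic loess gave 1 lower call. Id4, an inhibitor of differentiation, stood at 7.29, 7.11 and 7.04 in lymph node and 3.29, 3.70 and 3.54 in thymus (3.64 ± 0.14), with the thymus PDPN- arrays at 6.32, 6.38 and 6.55, and the activin receptor Acvr2a at 8.26, 8.37 and 8.33 against 5.81, 6.13 and 5.91 (2.37 ± 0.16). The targets Id1 (-0.43 ± 0.18), Id2 (0.32 ± 0.17) and Id3 (-0.13 ± 0.15) did not pass.

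Hedgehog proteins bind the receptor Patched, encoded by Ptch1, which releases Smoothened and turns on GLI factors; Ptch1, Gli1 and Hhip are themselves induced when the pathway is active. These 3 genes were higher in lymph node together. Gli1 stood at 7.04, 7.27 and 6.91 in lymph node and 4.0, 4.17 and 4.58 in thymus (2.82 ± 0.17, adjusted p 9.57e-09). Ptch1 stood at 7.38, 7.45 and 7.27 against 4.37, 4.63 and 4.53 (2.86 ± 0.13), and Hhip, a decoy receptor, at 6.21, 6.42 and 5.96 against 2.22, 2.86 and 2.40 (3.70 ± 0.16). No array of one tissue reached the other in these genes. Gli2 was higher by a smaller step (0.97 ± 0.14), and the co-receptor Gas1 was lower (-0.95 ± 0.20). The ligand genes lay among low signals, with Shh at 2.92, 3.06 and 3.28 against 2.78, 2.66 and 2.57 (0.42 ± 0.12). The call of Shh was lost without replicate 2 or 3 of either tissue (adjusted p 0.0596 to 0.129). It was also lost in a limma fit on the populations compared alone (adjusted p 0.0865). Ihh and Dhh lay at means of 3.16 and 2.20 in lymph node and 2.95 and 2.22 in thymus. Of 13 pathway genes 5 were higher and 1 lower, with a median of 0.34. For Gli1, Ptch1 and Hhip the difference between subsets passed too (2.17 ± 0.24, 2.38 ± 0.18 and 3.50 ± 0.22), and in PDPN- cells they differed by 0.65 ± 0.17, 0.48 ± 0.13 and 0.20 ± 0.16. The GLI consensus GACCACCCA was searched on both strands of the 250-base windows before the start and was found in none of Ptch1, Hhip and Gli2, against 0.225% of all windows; this says only that these letters are not in these windows.

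RET signals with a GFRα co-receptor when a GDNF-family ligand binds. Of 15 genes of this group 1 was higher and 3 lower, with a median of -0.00. Gfra1, the co-receptor for GDNF, followed Ret and stood at 2.84, 3.17 and 3.05 in lymph node and 4.40, 5.11 and 4.66 in thymus (-1.70 ± 0.17). The ligands Gdnf, Nrtn, Artn and Pspn did not pass, at means of 2.67, 2.79, 2.31 and 2.97 in lymph node and 2.66, 2.80, 2.44 and 2.83 in thymus. Gfra2, the co-receptor for neurturin, stood at 8.30, 8.43 and 8.13 against 8.13, 7.98 and 7.71 without passing (0.35 ± 0.13, adjusted p 0.083). The higher call was that of the neurotrophin receptor Ngfr (0.64 ± 0.15), which was not held, and Ntrk3 differed by -0.38 ± 0.13, a call lost without thymus replicate 2 or 3 or any lymph node replicate (adjusted p 0.0623 to 0.159) and in 4 other alternatives, the replicate block among them (0.0627).

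Wnt proteins are secreted ligands, and their antagonists block them outside or inside the cell. Of 17 antagonist genes 0 were higher in lymph node and 6 lower, with a median of -0.21; 1 of the 17 had an unadjusted limma p under 0.05 with a positive difference. Nkd2, an intracellular inhibitor, stood at 5.09, 4.69 and 4.79 in lymph node and 6.81, 7.06 and 6.87 in thymus (-2.06 ± 0.14). The secreted antagonists Dkk2 (-1.38 ± 0.24), Frzb (-1.36 ± 0.16) and Sfrp1 (-1.06 ± 0.15) and the membrane proteins Apcdd1 (-1.0 ± 0.17) and Kremen1 (-0.95 ± 0.19) were lower as well. Of 30 ligands, R-spondins and targets 6 were higher (5 held) and 6 lower. The ligands Wnt2b (1.17 ± 0.20) and Wnt11 (0.96 ± 0.18) and the R-spondin Rspo1 (1.40 ± 0.22) were higher in lymph node. Wnt2 was higher in thymus (-1.33 ± 0.12), as was Axin2, a target of the canonical pathway, at 6.37, 6.31 and 6.44 in thymus against 5.21, 5.09 and 4.93 in lymph node (-1.30 ± 0.11), and Lgr5, a stem cell receptor for R-spondins, at 4.16, 5.37 and 5.19 in thymus against 2.16, 2.31 and 2.43 in lymph node (-2.61 ± 0.23).

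**Figure D4:**
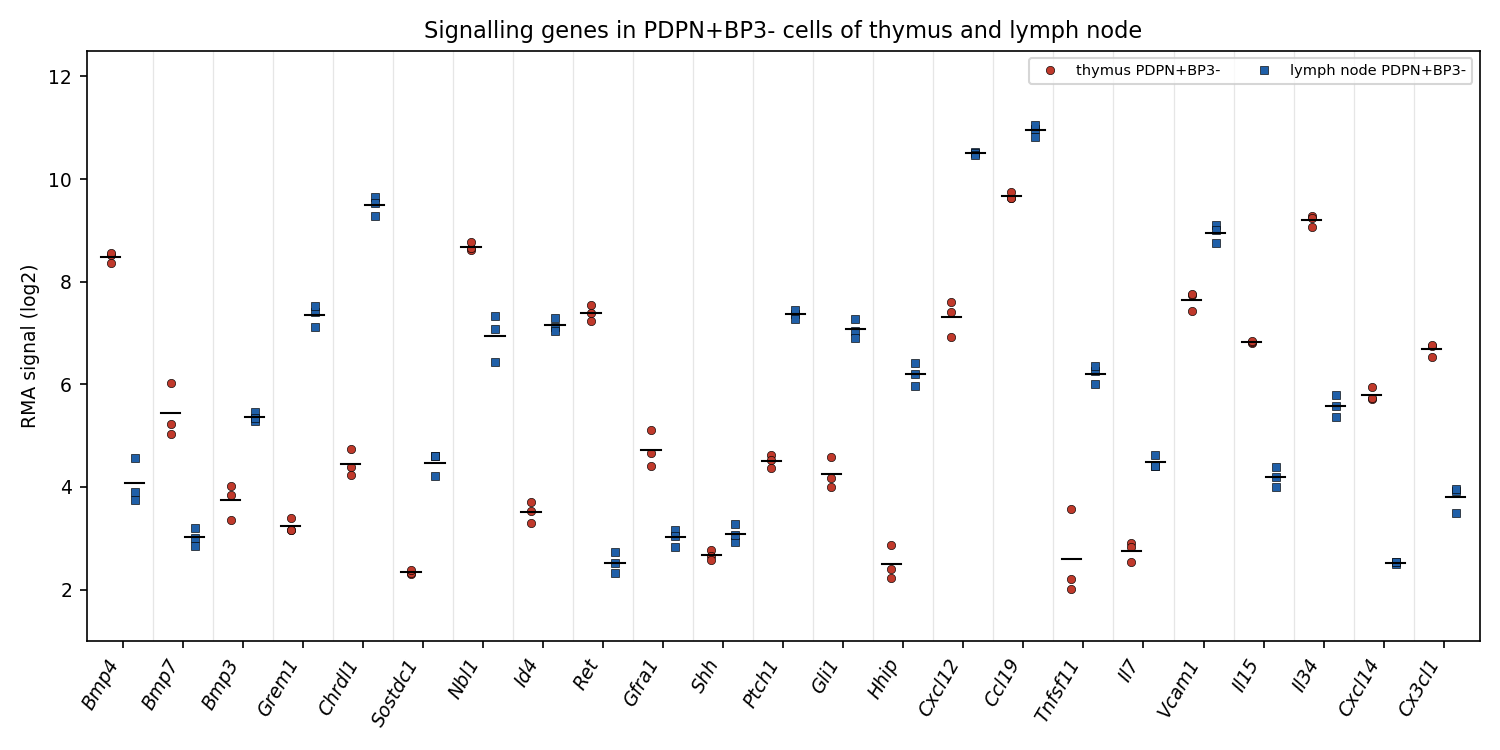
RMA signal (log2, vertical axis) of signalling genes (horizontal axis) on the 3 thymus (red circles) and 3 lymph node (blue squares) PDPN+BP3- arrays, with bars at the means. Bmp4, Ret, Il15, Il34, Cxcl14 and Cx3cl1 are higher on every thymus array, and Grem1, Chrdl1, Id4, Ptch1, Gli1, Hhip, Cxcl12 and Tnfsf11 on every lymph node array.

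Stroma of lymphoid organs attracts, holds and feeds lymphocytes, and 12 of 25 genes of this kind were higher in lymph node cells (11 held) and 3 lower (median 0.17). The mean of the list was 6.41, 6.40 and 6.30 on the lymph node PDPN+BP3- arrays and 5.42, 5.66 and 5.70 on the thymus ones. It was higher still on the lymph node PDPN+BP3+ arrays, at 7.26, 7.30 and 7.28. Cxcl12, the chemokine that retains cells through CXCR4, stood at 10.53, 10.50 and 10.47 in lymph node and 6.92, 7.60 and 7.40 in thymus (3.19 ± 0.14, adjusted p 2.45e-10). Ccl19, which draws T cells through CCR7, stood at 10.97, 11.05 and 10.82 against 9.63, 9.64 and 9.75 (1.27 ± 0.12). Tnfsf11, which encodes RANKL, stood at 6.26, 6.35 and 6.01 against 2.02, 3.58 and 2.21 (3.60 ± 0.31). In each the arrays of the tissues did not overlap. Lepr, the leptin receptor of reticular stroma, was higher (2.83 ± 0.18), as were the adhesion molecules Vcam1 (1.30 ± 0.13) and Icam1 (0.97 ± 0.20), the addressin Madcam1 at low signals (1.04 ± 0.25), the Notch ligand Jag1 (1.36 ± 0.12) and Tnfsf13b, which encodes the B cell factor BAFF (0.87 ± 0.16). Cxcl13, which draws B cells, stood at 8.85, 9.16 and 8.64 against 8.64, 8.51 and 9.26 without a difference past the threshold (0.08 ± 0.23).

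The cytokines that keep lymphocytes alive were divided between the tissues. Il7 stood at 4.41, 4.63 and 4.41 in lymph node and 2.53, 2.90 and 2.83 in thymus (1.73 ± 0.17), and Il15 at 4.39, 4.0 and 4.19 against 6.81, 6.82 and 6.85 (-2.63 ± 0.16). Il7 was thus higher on every lymph node array and Il15 on every thymus array. Tnfrsf11b, which encodes osteoprotegerin, the decoy receptor of RANKL, went against Tnfsf11, at 3.15, 3.0 and 3.07 in lymph node and 5.0, 5.74 and 5.18 in thymus (-2.23 ± 0.17). Il34, a ligand of the macrophage receptor CSF1R, stood at 5.79, 5.58 and 5.36 against 9.28, 9.06 and 9.25 (-3.62 ± 0.18), while the lymph node PDPN- arrays stood at 9.50, 9.34 and 9.52. The milk-fat globule protein Mfge8, a bridge to apoptotic cells, was lower in lymph node (-0.78 ± 0.10).

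Of 28 chemokine and scavenger receptor genes 6 were higher in lymph node and 10 lower (median -0.16). The neutrophil chemokines Cxcl5 (2.24 ± 0.23), Cxcl2 (2.11 ± 0.35) and Cxcl1 (1.34 ± 0.19), the monocyte chemokine Ccl2 (0.83 ± 0.19) and Cxcl16 (1.92 ± 0.15) and Cxcl9 (0.98 ± 0.17) were higher. In thymus Cxcl14 stood at 5.71, 5.73 and 5.94 against 2.50, 2.53 and 2.54 in lymph node (-3.27 ± 0.10), and Cx3cl1 at 6.75, 6.54 and 6.77 in thymus against 3.92, 3.50 and 3.97 (-2.89 ± 0.16). The scavenger receptors Ackr2 (-2.02 ± 0.18) and Ackr3 (-1.71 ± 0.23) were higher in thymus too. Ccl25, the chemokine by which thymic epithelium draws progenitors, stood at 6.87, 8.18 and 7.98 in thymus, lowest on replicate 1, and 4.44, 3.22 and 3.73 in lymph node (-3.88 ± 0.40). Its difference in PDPN- cells was -5.14 ± 0.40, and the part of epithelial RNA in it was not tested.

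Growth factors for epithelium, vessels and lymphocytes showed 17 of 47 genes higher in lymph node (14 held) and 9 lower (8 held; median 0.17). Beside Angpt2, the lymphatic factors Vegfd at 8.54, 8.59 and 8.64 in lymph node and 6.46, 6.45 and 6.28 in thymus (2.19 ± 0.16) and Vegfc (1.02 ± 0.15) were higher, with Vegfa (1.42 ± 0.13), Pdgfa (1.29 ± 0.17) and Angptl4 (1.75 ± 0.17). Hgf, the ligand of MET, stood at 7.19, 6.97 and 7.17 against 4.39, 4.97 and 5.07 (2.30 ± 0.20), and Fgf7 at 7.75, 7.79 and 7.89 against 5.92, 6.49 and 5.94 (1.69 ± 0.25). Both are mesenchymal factors that act on epithelium. Fgf10, which signals through the same epithelial FGF receptor as Fgf7, went the other way at 6.01, 5.74 and 6.07 against 7.13, 7.35 and 7.33 (-1.33 ± 0.11), with Fgf1 (-0.95 ± 0.13), Igf2 (-1.43 ± 0.17) and Angptl1 (-2.85 ± 0.26) also higher in thymus. The EGF-family ligand Hbegf (1.27 ± 0.15) and the IL-6-family cytokines Il6 (1.29 ± 0.31) and Clcf1 (1.01 ± 0.23) were higher in lymph node, and Kitl by 0.69. The call of Lif (0.99 ± 0.27) was not held, with adjusted p 0.0898 without thymus replicate 1 and 0.0948 without lymph node replicate 2. Of 9 IGF-binding protein genes 1, Igfbp3, was higher (0.73 ± 0.16) and 0 lower, where 11.8% of all genes were higher and 5.29% lower. Among the 9, 0 had an unadjusted limma p under 0.05 with a negative difference, and cyclic loess gave 1 lower call.

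Enzymes of steroid, retinoid and prostanoid metabolism gave some of the widest single differences. Of 12 genes of glucocorticoid activation Hsd11b1 alone passed. H6pd, which supplies its cofactor, stood at 8.28, 8.33 and 7.95 in lymph node and 7.87, 7.89 and 7.80 in thymus (0.33 ± 0.13, adjusted p 0.0977), and the glucocorticoid receptor Nr3c1 at 8.11, 8.06 and 7.92 against 7.44, 7.90 and 7.90 (0.28 ± 0.14, adjusted p 0.182). Of 16 genes known to respond to glucocorticoid 5 were higher in lymph node and 0 lower (median 0.36; 0 with an unadjusted limma p under 0.05 and a negative difference). They were Angptl4 and Sult1a1 (1.07 ± 0.16), Glul (0.61 ± 0.14), Dusp1 (0.56 ± 0.12) and Sgk1 (0.69 ± 0.20), the last of which was not held and failed without replicate 1 of either tissue or thymus replicate 2 (adjusted p 0.0896 to 0.125). Ptgis, the prostacyclin synthase, stood at 3.34, 2.98 and 3.16 in lymph node and 7.26, 7.83 and 7.83 in thymus (-4.48 ± 0.20, adjusted p 1.84e-10), and the prostaglandin E synthase Ptges at 6.52, 6.27 and 6.20 against 8.15, 8.29 and 8.64 (-2.03 ± 0.17). Hpgd, which degrades prostaglandins, was higher in lymph node at 6.88, 7.21 and 6.71 against 4.78, 5.46 and 5.29 (1.76 ± 0.24), as was the receptor Ptger2 (1.03 ± 0.15). The RNAs of Ptgis and Ptges were thus higher in thymus, and that of Hpgd in lymph node. Of 18 prostanoid genes 2 were higher (11.1%, near the 11.8% of all genes) and 5 lower (27.8%, beside 5.29%). Retinoic acid is made from retinol in steps that Rdh10 and the aldehyde dehydrogenases carry out. Rdh10 stood at 5.59, 5.94 and 5.97 in lymph node and 7.04, 7.41 and 7.52 in thymus (-1.49 ± 0.13), and Aldh1a1 (-1.91 ± 0.24), Aldh1a3 (-1.32 ± 0.17) and the retinoic acid receptor Rarb (-1.70 ± 0.16) were higher in thymus as well. In all, 3 of 19 retinoid genes were higher in lymph node (15.8%, near the 11.8% of all genes), 1 of them held (Cyp1b1, 0.77 ± 0.14). Another 5 were lower, all held (26.3%, beside 5.29% of all genes).

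Claudins seal tight junctions, and the family differed by member. Besides Cldn1, the claudins Cldn10 (1.69 ± 0.17) and Cldn12 (1.13 ± 0.13) and the junction adhesion molecule F11r (2.10 ± 0.18) were higher in lymph node. Cldn15, a pore-forming claudin, stood at 5.91, 6.22 and 6.45 in thymus against 2.87, 3.10 and 3.07 in lymph node (-3.18 ± 0.14), with Jam2 (-1.75 ± 0.26), the cingulin relative Cgnl1 (-1.05 ± 0.17) and Cldn3 at low signals (-0.94 ± 0.13) on the same side. Of 23 genes 5 were higher and 4 lower, and occludin, encoded by Ocln, stood at means of 1.93 and 2.10.

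Guidance molecules first known from axons steer cells and vessels in mesenchyme. Slit2 stood at 4.89, 3.76 and 3.59 in lymph node and 8.17, 8.51 and 8.47 in thymus (-4.30 ± 0.27), and its receptor Robo1 at 6.0, 5.97 and 5.53 against 7.90, 8.12 and 7.43 (-1.98 ± 0.19). Sema3a stood at 2.12, 1.94 and 2.0 against 4.48, 5.59 and 5.08 (-3.03 ± 0.19), with Sema3c (-1.54 ± 0.20), Efna5 (-2.11 ± 0.20) and Efnb2 (-1.53 ± 0.14) also higher in thymus. Their relatives did not all follow, since Sema3b (1.18 ± 0.18) was higher in lymph node. The higher call of Slit3 (0.50 ± 0.14) was not held and failed without thymus replicate 1 or lymph node replicate 1 or 2 (adjusted p 0.058 to 0.0838). Ephb6 (1.17 ± 0.17), Efna1 (1.26 ± 0.20), Sema6d (0.83 ± 0.16), Efnb1 (0.89 ± 0.19), Unc5c (0.73 ± 0.17) and the receptor Nrp1 (0.80 ± 0.13) were higher in lymph node. Of 47 guidance genes 13 were higher (8 held) and 9 lower (median 0.17), and without thymus replicate 1 the counts were 8 and 11; after cyclic loess the median was -0.03.

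Collagens and elastic fibres give stroma its strength and recoil. Of 38 collagen genes 6 were higher in lymph node, 3 of them held, and 10 lower, all held (median -0.17). Col8a1, a short-chain collagen, stood at 3.02, 3.43 and 2.69 in lymph node and 6.95, 7.72 and 7.22 in thymus (-4.25 ± 0.20), and Col15a1, which bridges basement membranes to fibrils, at 6.95, 6.73 and 6.51 against 9.54, 9.66 and 9.39 (-2.80 ± 0.16). The collagen VI chains Col6a5 (-1.39 ± 0.19), Col6a6 (-1.03 ± 0.19) and Col6a2 (-1.06 ± 0.15) were lower in lymph node as well, while Col28a1 was higher (1.37 ± 0.15). The fibrillar chains Col1a2 (0.24 ± 0.11) and Col3a1 (0.01 ± 0.13) did not pass, and the higher call of Col1a1 (0.47 ± 0.13) was not held and failed without replicate 1 of either tissue (adjusted p 0.053 to 0.0765). Of 20 elastic fibre genes 0 were higher and 11 lower (10 held; median -0.50; 1 with an unadjusted limma p under 0.05 and a positive difference). Eln, which encodes elastin, stood at 7.61, 7.11 and 7.23 against 8.25, 8.47 and 8.48 (-1.08 ± 0.14), and the TGF-β-binding Ltbp1 at 5.82, 5.41 and 5.59 against 8.33, 8.47 and 8.52 (-2.83 ± 0.19), with Efemp1 (-1.38 ± 0.22), Emilin2 (-1.02 ± 0.16), Fbln2 (-1.01 ± 0.16) and Fbln1 (-0.87 ± 0.15) lower too. In PDPN- cells the same list gave 7 higher and 3 lower, beside 4.42% and 5.19% of all genes. The difference between the subsets passed for 12 of its 20 genes, beside 12.7% of all genes.

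Proteoglycans and matricellular genes went both ways, with 9 of 46 higher (8 held) and 12 lower. Fmod, which encodes fibromodulin, stood at 8.82, 8.52 and 8.07 in lymph node and 5.27, 5.38 and 5.50 in thymus (3.09 ± 0.18), with thymus PDPN- arrays at 7.67, 7.69 and 7.47, and Tgfbi (1.38 ± 0.17), Spon2 (1.64 ± 0.21), Ecm2 (1.09 ± 0.11) and the tenascin Tnc (1.06 ± 0.14) were higher in lymph node. Thbs4 stood at 2.87, 4.33 and 3.36 against 7.02, 7.43 and 7.38 (-3.76 ± 0.26). On the lymph node PDPN+BP3+ arrays Thbs4 stood at 9.11, 8.59 and 8.80, above every thymus PDPN+BP3- array. Smoc2 (-1.99 ± 0.20), Sparcl1 (-1.52 ± 0.14), Spon1 (-1.42 ± 0.15) and Ccn3 (-1.11 ± 0.27) were also higher in thymus PDPN+BP3- cells. Basement membrane laminins changed by chain. Lama3 at 6.23, 6.25 and 5.83 in lymph node and 3.28, 2.87 and 3.11 in thymus (3.02 ± 0.15) and Lama5 at 6.39, 6.59 and 5.85 against 3.73, 3.60 and 3.64 (2.62 ± 0.18; 7.20, 7.0 and 6.94 on the thymus PDPN- arrays) were higher in lymph node, and Lama2 (-1.28 ± 0.16), Lamb1 (-0.75 ± 0.10), Lamc3 (-0.88 ± 0.14), Npnt (-1.14 ± 0.13) and the perlecan gene Hspg2 (-1.13 ± 0.15) were higher in thymus. Of 19 genes of that list 3 were higher (2 held) and 7 lower. Among 32 proteases and inhibitors 5 were higher (4 held) and 7 lower, with Adamts1 (1.14 ± 0.16) and Mmp3 (1.17 ± 0.28) higher in lymph node and Adamts8 (-2.67 ± 0.20), Adamtsl3 (-2.46 ± 0.21) and Mmp9 (-2.13 ± 0.22) higher in thymus.

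Adventitial fibroblasts sheathe larger vessels, and 9 of 19 genes known from them were lower in lymph node and 1 higher (median -0.36). Pi16 stood at 6.14, 4.50 and 4.82 in lymph node and 8.88, 9.24 and 9.02 in thymus (-3.89 ± 0.28), Dpp4 at 6.36, 5.57 and 6.45 against 7.79, 8.34 and 8.27 (-2.01 ± 0.23) and Cd34 at 9.50, 9.35 and 9.64 against 10.25, 10.37 and 10.43 (-0.85 ± 0.19). Lymph node replicate 1 was the highest of its group for Pi16, and no lymph node array reached a thymus array in these 3 genes. Efhd1 (-2.71 ± 0.26), Ackr3, Cd55 (-1.70 ± 0.24), Sema3c and Anxa3 (-1.39 ± 0.22) were lower as well, and the endothelial protein C receptor Procr was higher (1.29 ± 0.18). Pdgfra (0.10 ± 0.14), Dpt (-0.05 ± 0.27) and Clec3b (0.18 ± 0.23) did not pass. In PDPN- cells 8 of the 19 were higher in lymph node and 1 lower, beside 4.42% and 5.19% of all genes. The difference between the subsets passed for 14, beside 12.7% of all genes.

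Contractile and pericyte genes went the other way, with 13 of 24 higher in lymph node PDPN+BP3- cells (10 held) and 4 lower (median 0.59). Acta2, smooth muscle actin, stood at 9.39, 9.61 and 9.09 in lymph node and 7.88, 7.91 and 7.75 in thymus (1.52 ± 0.12), Rgs5 at 8.01, 8.17 and 8.07 against 5.94, 6.45 and 6.27 (1.86 ± 0.12) and Tagln at 8.23, 8.31 and 8.23 against 6.58, 6.78 and 6.75 (1.55 ± 0.14). Each was separated by tissue on all PDPN+BP3- arrays. Steap4 (1.81 ± 0.14), Myh11 (1.52 ± 0.16), Notch3 (1.12 ± 0.19), Kcnj8 (1.09 ± 0.15), Abcc9 (1.03 ± 0.12) and Mcam (1.0 ± 0.18) were higher too, and Ndufa4l2 (-1.94 ± 0.21), Higd1b (-1.33 ± 0.12) and Cspg4 (-0.80 ± 0.17) lower. The mean of the list was 5.72, 5.71 and 5.61 on the lymph node PDPN+BP3- arrays and 5.15, 5.18 and 5.29 on the thymus ones, against 8.42 to 8.78 on the PDPN- arrays. In PDPN- cells 2 of the genes were higher in lymph node and 8 lower, beside 4.42% and 5.19% of all genes.

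Genes of other functions are given by their counts. Of 20 immediate early genes, which are induced within minutes of a stimulus, 14 were higher in lymph node and 0 lower (0 with an unadjusted limma p under 0.05 and a negative difference). Without thymus replicate 1 the count was 9, and 8 were held, among them Nr4a1 at 10.03, 10.27 and 10.0 in lymph node against 7.43, 7.89 and 8.66 in thymus (2.11 ± 0.23), Egr3 (1.84 ± 0.23) and Egr2 (1.63 ± 0.18). In thymus the list's mean was lowest on that array (8.05, 8.28 and 8.58), and the lymph node arrays stood at 9.01, 9.06 and 8.92. Of 19 adipocyte genes 7 were higher, 5 of them held, with Apoe (1.92 ± 0.20), Cebpa (1.80 ± 0.15) and Lpl (0.78 ± 0.15) among them, and 0 lower (2 with an unadjusted p under 0.05 by limma and a negative difference, and 2 lower calls without thymus replicate 1). Of 16 complement genes 6 were higher (4 held) and 3 lower (2 held); Clu (2.67 ± 0.22) and C2 (2.05 ± 0.14) were higher in lymph node and Masp1 and Cd55 in thymus. Of 26 interferon response genes 3 were higher (11.5%, near the 11.8% of all genes), 2 of them held, and 6 lower (23.1%, beside 5.29%). Oas1a (-1.41 ± 0.31), Ifi27l2a (-1.25 ± 0.25) and Ifit1 (-0.84 ± 0.14) were higher in thymus. Of 23 cell cycle genes 6 had less signal in lymph node and 0 more, with Top2a at 4.96, 5.68 and 5.13 against 5.80, 6.22 and 6.36 (-0.87 ± 0.19), and 1 had an unadjusted limma p under 0.05 with a positive difference. Of 18 class I presentation genes 3 were higher (16.7%, beside 11.8% of all genes), 2 of them held, the clearest being H2-M3 (2.49 ± 0.20). In that list 0 were lower, 1 had an unadjusted limma p under 0.05 with a negative difference, and cyclic loess gave 1 lower call.

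**Figure D5:**
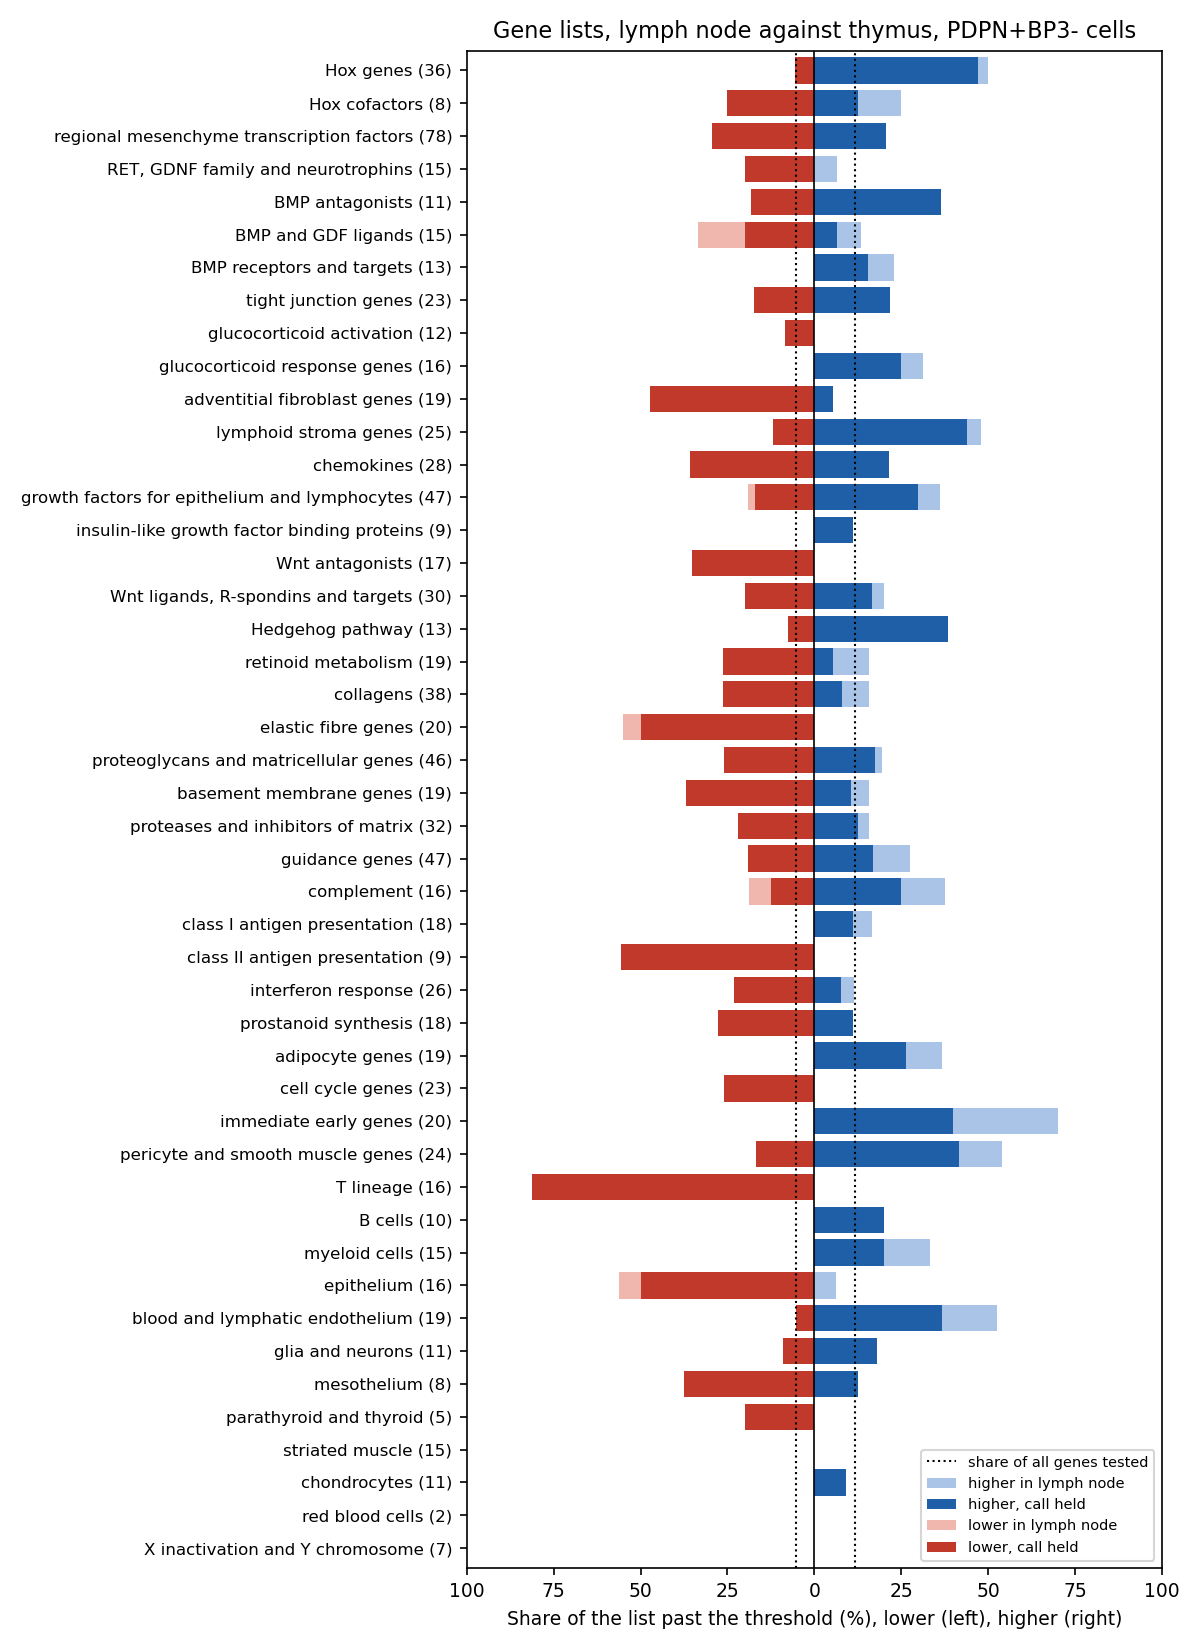
Share of the measured genes of each list (number in brackets) that was lower in lymph node (red, to the left) or higher (blue, to the right) in PDPN+BP3- cells, in percent on the horizontal axis; dark bars are held calls and dotted lines mark the share of all 18718 genes, 5.29% lower and 11.8% higher. Hox, BMP antagonist, Hedgehog and lymphoid stroma genes extend to the right, and adventitial, Wnt antagonist, elastic fibre, T lineage and epithelium genes to the left.

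Transcripts of other cells moved with tissue, among them those of thymocytes and epithelium. Of 16 T lineage genes 13 were lower in lymph node and 0 higher (0 with an unadjusted limma p under 0.05 and a positive difference; median -1.55). The mean of the list was 3.66, 4.82 and 4.90 on the thymus PDPN+BP3- arrays, lowest on replicate 1, and 3.16, 2.96 and 3.10 on the lymph node arrays. Cd8a stood at 4.51, 6.60 and 6.71 in thymus and 3.58, 3.16 and 3.48 in lymph node (-2.53 ± 0.42), and Cd3d at 2.83, 5.07 and 5.09 in thymus against 2.50, 2.49 and 2.49 (-1.84 ± 0.40). The call of Cd3d was lost in a limma fit on the populations compared alone (adjusted p 0.0608). Thy1, which fibroblasts also express, stood at 10.92, 10.97 and 10.96 in thymus against 8.84, 7.91 and 8.38 (-2.57 ± 0.18). In PDPN- cells 13 of the 16 were lower too, beside 5.19% of all genes. The difference between subsets passed for 0 of the 16, beside 12.7% of all genes. Of 16 epithelium genes 9 were lower (8 held) and 1, the Notch ligand Dll4, was higher without its call being held (median -0.62). The mean of the list was 3.51, 4.14 and 4.33 on the thymus arrays and 3.06, 2.86 and 2.94 on the lymph node arrays, with Krt18 at 5.51, 6.91 and 7.15 in thymus against 3.26, 2.72 and 2.43 (-3.72 ± 0.35), Krt8 at 5.56, 7.02 and 7.07 in thymus against 4.72, 3.92 and 4.55 (-2.15 ± 0.34) and Prss16 at 3.71, 4.93 and 5.65 in thymus against 2.63, 2.28 and 2.27 (-2.37 ± 0.33). Replicate 1 of thymus was the lowest of its group in Krt18, Krt8, Prss16 and Ccl25, and the markers Aire and Psmb11 lay at means of 3.05 and 3.13 in thymus. Of 9 class II presentation genes 5 were lower and 0 higher (1 with an unadjusted p under 0.05 by limma and a positive difference), with H2-Aa at 5.57, 6.88 and 7.48 in thymus and 4.29, 3.81 and 4.07 in lymph node (-2.59 ± 0.35). Reg3g, Krtdap and the class II genes are given beside these lists, while Ccl25 is a member of the epithelium list. The part of thymocyte or epithelial RNA in their differences was not tested. Nor was its part in those of other genes higher in thymus, such as Gata3, Pax9 and Cldn3.

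Endothelial genes were higher in lymph node in 10 of 19 cases (7 held) and lower in 1 (median 0.54). Cdh5, the cadherin of endothelium, stood at 5.32, 5.22 and 5.53 in lymph node and 2.78, 2.87 and 2.87 in thymus (2.52 ± 0.19) and Pecam1 at 6.0, 4.86 and 5.22 against 3.21, 3.54 and 3.46 (1.96 ± 0.27), while Kdr lay at means of 2.86 and 2.93 and Flt4 at 2.50 and 2.25. Sele, which encodes E-selectin, was higher in thymus at 8.62, 9.13 and 9.24 in thymus against 5.84, 6.18 and 6.44 (-2.84 ± 0.25). The mean of the list was 4.58, 4.24 and 4.52 on the lymph node arrays and 3.43, 3.54 and 3.52 on the thymus arrays. Glycam1 is a member of this list and is counted in its higher calls and its means. The part of endothelial RNA in the difference of Glycam1 was not tested. Of 15 myeloid genes 5 were higher (3 held), led by Cd14 (1.98 ± 0.25) and Cd68 (1.91 ± 0.27), and 0 lower (1 with an unadjusted limma p under 0.05 and a negative difference, and 1 lower call without thymus replicate 1), with Csf1r at means of 2.51 and 2.46. Of 10 B cell genes Cd72 (1.62 ± 0.19) and Ebf1 were higher, and Cd79a and Ms4a1 lay at means of 2.33 and 1.97 in lymph node. Of 8 mesothelium genes 3 were lower, Wt1 with Upk3b (-1.11 ± 0.15) and Lrrn4 (-0.96 ± 0.12) at low signals, and 1 higher, Gpm6a (0.58 ± 0.12), while Msln lay at means of 2.21 and 2.73. Of 11 glia and neuron genes 2 were higher and 1, Erbb3 (-0.55 ± 0.11), lower; S100b, known from glia and cartilage, was higher (2.35 ± 0.18), with Sox10 at means of 2.81 and 2.79. Of 5 parathyroid and thyroid genes Tshr was lower (-0.60 ± 0.13), and of 11 chondrocyte genes Col11a1 was higher (0.73 ± 0.11). By limma 0 of 15 striated muscle genes and 0 of 2 red cell genes passed, and in the first list 1 had an unadjusted p under 0.05 and in the second 0. No marker is at 0 on this scale. In pools of sorted cells, fewer cells of a type and less RNA per cell cannot be told apart.

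The PDPN- cells of the same tissues gave the tissue difference in the other sorted subset. There 1799 genes passed (9.61%), 827 higher in lymph node (4.42%) and 972 lower (5.19%). Of the 2215 genes higher in lymph node PDPN+BP3- cells, 355 were also higher in the PDPN- comparison (16.03% of the first list and 42.93% of the second), and 128 were lower there. Of the 990 lower genes 238 were lower in both (24.04% and 24.49%), and 72 went the other way. Hoxc6, Hoxc8, Tbx15, Tcf21 and Meis1 are among the genes with like differences in both subsets. The difference between the subsets was itself tested and passed for 2381 genes (12.7%), with 1623 more positive in PDPN+BP3- cells (8.67%) and 758 more negative (4.05%), a split that became 862 and 1215 after cyclic loess.

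The genes with the widest gap between the subsets did not share 1 pattern over the 4 populations. Cldn1 stood at 2.42, 2.08 and 2.99 and 2.47, 2.25 and 2.20 on the lymph node and thymus PDPN- arrays, so its tissue difference of 6.12 ± 0.18 in PDPN+BP3- cells had no counterpart past the threshold there (0.19 ± 0.18; difference of differences 5.93 ± 0.25, adjusted p 5.28e-10). Ret likewise had low signals on all PDPN- arrays (difference of differences -5.02 ± 0.20). Ano1 (4.93 ± 0.26) and Angpt2 (4.52 ± 0.25) had high signals on all PDPN- arrays, 8.52 to 9.41 and 8.27 to 9.03, and were low only in thymus PDPN+BP3- cells among these 4 populations. Others turned direction. Lepr was higher in lymph node in PDPN+BP3- cells (2.83 ± 0.18) and higher in thymus in PDPN- cells (-2.58 ± 0.18; 4.10, 3.17 and 3.67 in lymph node and 6.32, 6.14 and 6.23 in thymus), and Cxcl12 did the same (3.19 ± 0.14 against -1.13 ± 0.14). The homeobox gene Meox1 was higher in thymus in PDPN+BP3- cells, at 7.17, 7.28 and 7.41 in thymus against 5.46, 4.84 and 5.04 (-2.17 ± 0.18), and higher in lymph node in PDPN- cells, at 7.37, 8.0 and 7.84 against 3.20, 2.88 and 3.43 (4.57 ± 0.18). Fndc1, a fibronectin-domain protein (-1.43 ± 0.19 against 4.26 ± 0.19), the cGMP-dependent kinase Prkg2 (-2.55 ± 0.18 against 3.38 ± 0.18) and the protease Mmp9 (-2.13 ± 0.22 against 2.59 ± 0.22) turned in the same way as Meox1. Osr1 was higher in lymph node in PDPN+BP3- cells (1.71 ± 0.19) and higher in thymus in PDPN- cells (-1.10 ± 0.19), and Vcam1 was higher in lymph node in both, with the larger difference in PDPN- cells (1.30 ± 0.13 against 2.51 ± 0.13, adjusted p of the difference 4.06e-04).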

How the data were processed

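Pools of sorted PDGFRβ-positive mesenchymal cells from lymph node and thymus were read on 15 Affymetrix Mouse Gene 1.1 ST arrays, 3 for each of 5 populations, with 1 array per individual experiment. The deposited values are log2 signals made by the authors with RMA in Affymetrix Expression Console, per the submitters' processing notes, which give no versions. That the base is 2 was read from their range, 1.07 to 12.07. RMA subtracts background and is meant to set arrays to a common distribution. The deposited arrays did not share 1 fully, since thymus PDPN+BP3- replicate 1 had a median of 3.58 against 3.77 to 3.885 elsewhere. A shift of most genes in 1 direction may therefore be removed only in part. Low signals lie close together whatever the RNA level. The genome build of the array annotation is not given in the sources used here.

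Of the rows of the table, 20844 had 1 gene symbol, 1735 several and 2179 none. Only the first were used; 20817 of them matched the mouse RefSeq gene table (GRCm38.p6) by gene number, and 0 symbols changed. Where a gene had several rows (1230 genes) the row of highest mean signal was kept, which left out 2126 rows and gave 18718 genes. No filter on low signals was set. Probes of close paralogues and overlapping genes can share signal.

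Differences were fitted with limma 3.58.1 in R 4.3.3 over all 15 arrays (lmFit and eBayes, residual degrees of freedom 10), 1 coefficient per population, and p-values were adjusted by Benjamini-Hochberg over all genes with a threshold of 0.05. The fit was tested on simulated data. The number of arrays, 3 per population, limits the precision. The same fit gave the difference between the tissue differences of PDPN+BP3- and PDPN- cells. Genes were named by 4 rules: the sort antigens and 5 markers; the 25 largest differences in each direction that also passed without thymus PDPN+BP3- replicate 1 and whose arrays did not overlap, leaving out predicted genes, small RNAs and receptor or histone families; members of gene lists; and the 6 widest differences between subsets of each sign. The members and the lists were chosen with earlier results of these data known. Genes named otherwise were members of those lists. Promoters are from the RefSeq table of the same build, and the share holding a motif or a number of CG dinucleotides was taken over all its windows.

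Alternatives were a fit on the populations compared, a trended and robust prior, array weights, cyclic loess, quantile normalization, a filter at the table's median, the mean of all rows of a gene, a replicate block and each array left out in turn.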

Additional observations from a re-analysis of the deposited data

Results flagged for a closer look

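The tissue difference differed between PDPN+BP3- and PDPN- cells for 2381 genes by the limma test of that difference itself (12.7% of the genes tested), and the 12 widest among genes that also passed in PDPN+BP3- cells are given here. In Cldn1 it was 5.93 log2 units more positive in PDPN+BP3- cells, in Lepr 5.41, in Ano1 4.93 and in Angpt2 4.52. Ddit4l, a relative of the stress-induced mTOR inhibitor DDIT4, was more positive by 5.90, with 6.65, 6.64 and 5.79 in lymph node and 3.45, 2.86 and 3.0 in thymus PDPN+BP3- cells against 5.48, 4.39 and 4.64 and 7.74, 7.45 and 7.25 in PDPN- cells. Shisa6, a membrane protein known to bind AMPA receptors, differed by 4.94, with 3.64, 3.80 and 3.79 and 2.47, 2.36 and 1.97 against 4.31, 3.10 and 3.59 and 7.05, 7.37 and 6.98. In Meox1 the difference was -6.74, in Cpxm2 -6.11, in Prkg2 -5.93, in Fndc1 -5.69 and in Ret -5.02. Fam162b differed by -5.73, with 2.81, 2.80 and 2.76 in lymph node and 2.0, 2.32 and 2.03 in thymus PDPN+BP3- cells against 8.39, 8.71 and 8.60 and 2.31, 1.88 and 2.30 in PDPN- cells. The PDPN- cells carry most of the gap in Fam162b, whose own difference in PDPN+BP3- cells (0.67 ± 0.19) was a call that was not held.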

How the results depend on the processing

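The count for lymph node against thymus in PDPN+BP3- cells lay between 2353 and 3424 genes with 1 array left out. It was 2168 in a fit on these populations alone, 2605 of 9693 genes with the filter on low signals, 2916 after cyclic loess and 2982 after quantile normalization, so each count stayed within 1.5 times 3205. The split moved with scaling: 69.11% of calls were higher in lymph node as deposited, 54.56% without thymus replicate 1, 50.74% after quantile normalization and 45.68% after cyclic loess, and array weights gave that array 0.285. For the difference between subsets the share of positive calls was 68.16%, 55.52%, 48.85% and 41.5% in the same order, and its count lay between 1752 and 2676 with 1 array left out. For PDPN- cells the count lay between 1273 and 2047. Deviations of PDPN+BP3- arrays with the same replicate number in the tissues correlated at -0.022, 0.053 and 0.049 across genes. Between lymph node PDPN- and PDPN+BP3- arrays they correlated at 0.288, -0.03 and 0.18. Between lymph node PDPN+BP3+ and PDPN+BP3- arrays they correlated at 0.154, 0.074 and 0.064. No pair of populations had all 3 above 0.1, and the numbers were not taken to pair the samples. These values do not settle whether subsets of 1 tissue came from the same pools. With the replicate block 3264 genes passed in PDPN+BP3- cells, 1776 in PDPN- cells and 2357 in the difference between subsets. Of 281 genes printed with a difference past the threshold, 265 passed with the same sign in every alternative that held them, 274 were held, and 0 changed sign. In the limma fit on these populations alone, Cd3d, Col1a1, Enpep, Hoxa2, Lif, Meis2, Nog, Ntrk3, Sgk1 and Shh did not pass (adjusted p 0.0527 to 0.148). Signals below the table's median of 3.8 limit what a difference says of a ratio, and 3 arrays a group limit small differences.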

Other observations

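Xist, the RNA of the inactive X chromosome, stood at 7.60, 7.64 and 8.17 on the lymph node PDPN+BP3- arrays and 7.40, 6.58 and 5.62 on the thymus ones, and at 7.92, 5.66 and 5.71 on the thymus PDPN- arrays. Of the Y chromosome, Eif2s3y stood at 5.51, 5.59 and 5.29 on the lymph node and 4.50, 6.06 and 6.0 on the thymus PDPN+BP3- arrays. Uty (2.92, 4.26 and 4.32) and Kdm5d (3.96, 5.15 and 4.72) were also lowest on thymus replicate 1. Zfy2 went the other way, at 5.09, 2.11 and 2.60 in thymus. The sex of the pooled mice is not named in the labels used here, and its part in the differences was not tested.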
